A study of Mus musculus with 6 samples.

Results

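The genes described here are 10 inhibitory receptor genes of T cells other than Pdcd1, the gene of PD-1: Havcr2 (TIM-3), Lag3 (LAG-3), Tigit (TIGIT), Ctla4 (CTLA-4), Cd160, Btla, Cd96, Cd101, Layn (layilin) and Lilrb4a. They were chosen by symbol, and 10 of 10 were found among the 40879 genes of the count table. All 10 passed the filter on low counts, which left 13360 genes for testing. The libraries are poly-A RNA of CD8 T cells taken by flow cytometry from MC38-hPD-L1 tumours, grown for 12 days in C57BL/6N mice. MC38 cells come from a colon carcinoma of the mouse. The study marked cells by photocatalytic proximity labelling, in which light drives a catalyst to attach biotin to what lies close by. The 3 Biotin+ libraries hold the cells described as neighbouring the tumour, and the 3 Biotin- libraries those described as distal. Per the labels both groups share the strain, tumour line, day and sort, and differ in biotin status. Age, sex and genotype beyond the strain are not given, nor whether a library is 1 mouse, a pool or a repeat, and the p-values cover only the variation among these 6 libraries, which may be technical.

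Inhibitory receptors are surface proteins that dampen signalling from the T cell receptor when they meet their ligands. They are induced by activation, and several of them stay high together on T cells that meet antigen for a long time in tumours or chronic infection, a state called exhaustion. TIM-3 binds galectin-9 and CEACAM1, LAG-3 binds MHC class II, TIGIT and CD96 bind the poliovirus receptor and nectins in competition with the activating receptor CD226, and CTLA-4 takes CD80 and CD86 away from CD28. BTLA and CD160 bind the TNF receptor family member HVEM, encoded by Tnfrsf14. CD101 is an immunoglobulin superfamily protein, layilin binds hyaluronan and Lilrb4a is a leukocyte immunoglobulin-like receptor that is also used by myeloid cells.

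The libraries held 16423106 to 19640693 counts. Cd8a lay between 501.8 and 1289 CPM (counts scaled to library size) in the 6 libraries. Cd4 lay between 0.848 and 5.45 CPM. Of 15 T cell identity genes 5 were higher in Biotin+, 0 lower and 10 did not pass in edgeR, and with the replicate number as a block 12 were higher. Cd8a averaged 1226 ± 63.6 CPM there and 653 ± 189 CPM in Biotin- (SD, n = 3 each, edgeR adjusted p = 0.0467). Summed markers of fibroblasts and endothelium lay between 154.6 and 336.7 CPM in Biotin+ and between 1039 and 1402 CPM in Biotin- (11 genes, of which 6 were lower in edgeR). Dendritic cell and class II markers summed to 573.6 to 1461 CPM in Biotin+ and 545.0 to 1476 CPM in Biotin-, natural killer and gamma-delta markers to 28.2 to 91.0 and 32.7 to 81.4 CPM, neutrophil markers to 2.85 to 17.4 and 2.92 to 7.39 CPM and tumour epithelial markers to 23.3 to 135.5 and 14.2 to 56.8 CPM, with 0 genes called in these lists. With the block Klrb1c, a natural killer marker, and Cdh1, an epithelial marker, were higher. Trdc, Eomes and Epcam, the other genes tested in those lists, had log2 fold changes of -0.70, -0.69 and -0.04 in that fit and did not pass. Krt8, Krt19 and Cldn4 had no count in any Biotin+ library. Cdh1 made up 128.7 of the 135.5 CPM of epithelial markers in Biotin+ replicate 1. The part of such cells in the results on the receptors was not tested. In bulk RNA, fewer cells of a type and less RNA per cell cannot be told apart.

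Promoter sequences were at hand for 8 of the 10 genes, all but Lag3 and Lilrb4a (RefSeq, GRCm38.p6, from 250 bases before the start site to 50 after it). The counts were made on another build, GRCm39, and carry no coordinates. Shown whole are Havcr2 and Tigit, which were higher in Biotin+, and Layn, which was lower. Sequences run 5′ to 3′ in the direction of the gene, and capitals mark the letters TGTGGT, a core that RUNX transcription factors recognise, on either strand.
Havcr2, chr11:46454681-46454980, plus strand: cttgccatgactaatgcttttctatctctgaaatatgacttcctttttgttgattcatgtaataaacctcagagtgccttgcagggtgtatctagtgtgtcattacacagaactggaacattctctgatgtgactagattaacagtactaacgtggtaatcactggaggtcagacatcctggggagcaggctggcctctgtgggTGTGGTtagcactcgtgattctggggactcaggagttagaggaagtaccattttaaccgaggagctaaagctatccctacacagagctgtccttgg
Tigit, chr16:43664135-43664434, minus strand: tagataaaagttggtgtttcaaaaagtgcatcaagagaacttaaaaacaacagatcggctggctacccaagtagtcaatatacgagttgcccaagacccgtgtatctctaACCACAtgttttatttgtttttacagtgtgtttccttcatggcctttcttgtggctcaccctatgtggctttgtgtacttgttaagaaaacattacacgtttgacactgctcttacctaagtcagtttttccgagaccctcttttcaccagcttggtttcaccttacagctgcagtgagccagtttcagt
Layn, chr9:51077045-51077344, minus strand: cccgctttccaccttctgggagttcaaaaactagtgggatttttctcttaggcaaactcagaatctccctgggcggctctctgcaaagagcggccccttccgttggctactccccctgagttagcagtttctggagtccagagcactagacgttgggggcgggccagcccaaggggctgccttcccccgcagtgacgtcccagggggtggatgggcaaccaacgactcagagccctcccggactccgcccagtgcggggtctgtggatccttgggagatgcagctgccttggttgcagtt

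The RUNX letters were in the window of 6 of the 8 genes (Havcr2, Tigit, Cd160, Btla, Cd96 and Cd101) and of 16.8% of all 32851 promoters of this length. Cd160 has 2 listed start sites, both with a match, and Cd96 has 2 matches in 1 window. The letters were not in the windows of Ctla4 and Layn. Of 7 motifs searched on both strands, this one was picked for display after the matches were seen. The stretches of 60 bases around the other matches before the start sites were these.
Cd160, chr3:96829395-96829454, minus strand: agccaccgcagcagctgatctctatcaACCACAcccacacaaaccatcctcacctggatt
Cd160, chr3:96814590-96814649, minus strand: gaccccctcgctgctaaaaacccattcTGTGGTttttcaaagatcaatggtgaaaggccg
Cd101, chr3:101029570-101029629, minus strand: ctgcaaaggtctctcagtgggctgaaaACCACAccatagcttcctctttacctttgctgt
Btla, chr16:45224132-45224191, plus strand: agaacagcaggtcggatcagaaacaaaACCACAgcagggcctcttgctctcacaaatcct
Cd96, chr16:46120244-46120303, minus strand: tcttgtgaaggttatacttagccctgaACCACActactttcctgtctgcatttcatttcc

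The NFAT core GGAAA was in 6 of 8 genes (Tigit, Ctla4, Cd160, Cd96, Cd101 and Layn) and in 61.3% of all promoters. The AP-1 letters TGANTCA were in Havcr2 alone and in 7.81% of all promoters. TCAAAG, a TCF-1 core, was in Ctla4 and Cd160 (16% of all promoters), and TTCNNNGAA, bound by STAT proteins, was in Cd160 and Cd96 (8.30%). AAAGGTCA (NR4A, 1.51%) and CCCCACCC (KLF, 9.99%) were in 0 of 8. No RUNX match overlapped another motif. A match is only a run of letters. For Havcr2 and Tigit the 50 bases after the listed start were not in any GENCODE M21 transcript of the gene, and which start T cells use was not tested.

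Per length of transcript, TIGIT, LAG-3 and CTLA-4 were the most abundant of these receptors in each of the 6 libraries. On the scale of CPM per kilobase of merged exons, Tigit was at 272 ± 33.8 in Biotin+ and 158 ± 19.3 in Biotin-, Lag3 at 232 ± 76.0 and 103 ± 8.72, and Ctla4 at 192 ± 54.0 and 97.1 ± 55.0 (SD, n = 3 each). In Biotin+ the range of Lag3 overlapped both others, while Tigit (234 to 298) lay just above Ctla4 (130 to 225). In Biotin- Ctla4 (65.0 to 161) overlapped both, and all Tigit values (144 to 180) were above all Lag3 values (96.5 to 113). Havcr2 (61.3 ± 20.1 and 24.7 ± 10.2) and Cd96 (44.8 ± 13.5 and 27.9 ± 10.4) followed, and their ranges overlapped in both groups. Cd160 (26.9 ± 6.76 and 15.8 ± 4.57) overlapped Cd96 and Lilrb4a (18.5 ± 1.47 and 14.0 ± 2.55). Cd101 held rank 8 in each library (9.12 ± 0.868 and 5.18 ± 1.11). Btla (0.534 to 0.842 in Biotin+ and 0.955 to 2.02 in Biotin-) and Layn (0.337 to 0.603 and 2.04 to 3.90) were the lowest, and in Biotin- replicate 3 Layn was close to Cd101 (3.90 and 3.93). Layn was the lowest in all 3 Biotin+ libraries and Btla in all 3 Biotin- libraries.

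**Figure D1:**
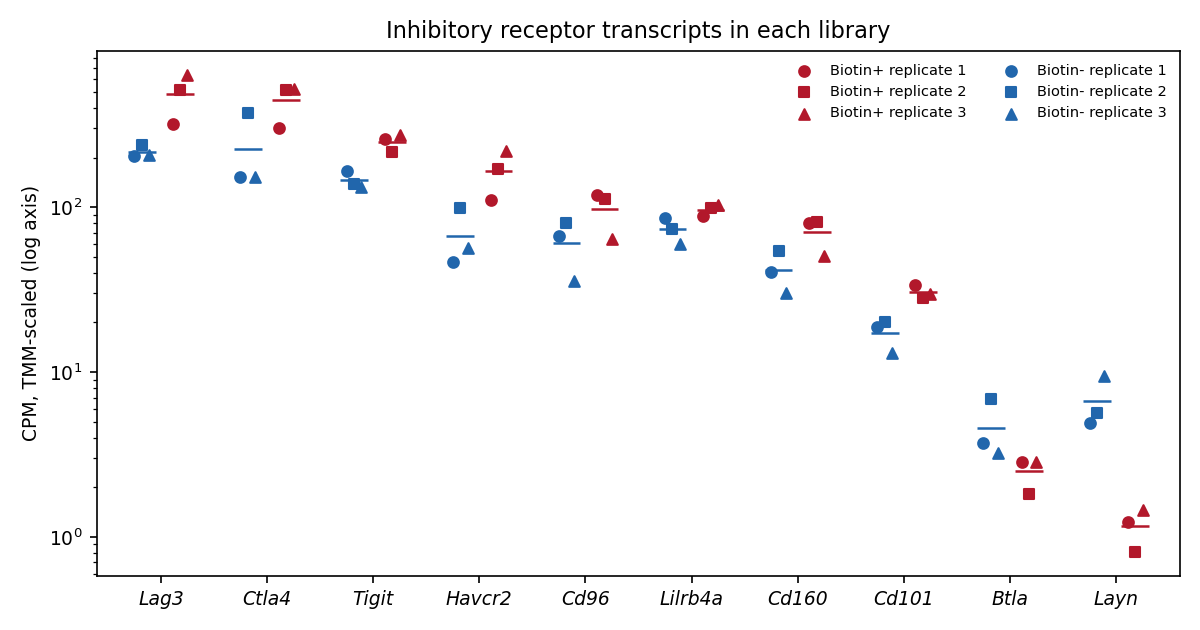
Level of each receptor gene in CPM (TMM-scaled, log axis) in the 3 Biotin+ (red) and 3 Biotin- (blue) libraries, with marker shape for the replicate number and a bar for the mean of each group. Havcr2, Lag3, Tigit, Cd101 and Lilrb4a show all red points above all blue points, and Btla and Layn show the opposite.

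TIM-3, LAG-3 and TIGIT transcripts were higher in the Biotin+ libraries, layilin transcripts were lower, and the other 6 genes did not pass the test. The test was edgeR's quasi-likelihood F test with p-values adjusted over all genes tested and a threshold of 0.05. Of the 10 genes 3 were called higher, where 1.53% of all tested genes were, and 1 was called lower, where 6.72% were. The median log2 fold change (Biotin+ minus Biotin-) of the 10 was 0.77 and that of all tested genes 0.06. CPM ranges lay apart with Biotin+ above for 5 of the 10 (13.4% of all tested genes), and with Biotin+ below for 2 (15.9%). Libraries with the same replicate number deviated together, and with the number as a block 7 of the 10 were higher and 1 lower, against 5.60% and 12.0% of all tested genes.

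Havcr2 encodes TIM-3, a receptor of terminally differentiated exhausted cells. It was at 110.5, 170.3 and 219.6 CPM in Biotin+ replicates 1, 2 and 3 and at 46.3, 98.8 and 56.5 CPM in Biotin- replicates 1, 2 and 3. All Biotin+ values were above all Biotin- values, but the lowest Biotin+ library and the highest Biotin- library were close. The log2 fold change was 1.31 ± 0.32 (SE), or 2.48-fold, with an edgeR adjusted p of 0.0335 (0.000451 with the block). The difference within a replicate number was 1.26, 0.79 and 1.96 on the log2 scale for numbers 1, 2 and 3, so that the pair of replicate 2 differed least. When single libraries were left out, Havcr2 passed without Biotin+ replicate 1 or Biotin- replicate 2 and did not pass without any of the other 4 (log2 fold change 1.07 to 1.63 over the 6 fits).

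Lag3, whose product binds MHC class II more tightly than CD4 does, was at 318.5, 511.7 and 636.7 CPM in Biotin+ and at 203.6, 237.4 and 208.1 CPM in Biotin- (replicates 1, 2 and 3). The Biotin- libraries were close to each other and the Biotin+ libraries were spread widely, with no overlap. The log2 fold change was 1.18 ± 0.26 (SE), or 2.26-fold (edgeR adjusted p = 0.0225, 0.000718 with the block). It passed without Biotin+ replicate 1 and lost the call without any of the other 5 libraries (log2 fold change 0.94 to 1.41 over the 6 fits).

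Tigit was at 260.3, 214.7 and 274.0 CPM in Biotin+ and at 165.8, 138.7 and 132.4 CPM in Biotin-. In Biotin+ it was the steadiest of the 3 higher genes, while in Biotin- Lag3 varied less on the log2 scale. The ranges of Tigit did not overlap. The log2 fold change was 0.78 ± 0.20 (SE), or 1.71-fold (edgeR adjusted p = 0.0358, 0.00605 with the block). It passed without Biotin+ replicate 2 and lost the call without any of the other 5 libraries (0.67 to 0.88 over the 6 fits). Of its 75-base windows 0.237% were shared with an olfactory receptor transcript, while Havcr2 and Lag3 shared none with transcripts of other genes.

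Ctla4 varied widely between Biotin- libraries. It was at 302.1, 516.4 and 523.8 CPM in Biotin+ and at 151.4, 374.2 and 153.3 CPM in Biotin-, so that Biotin- replicate 2 lay above Biotin+ replicate 1 and the groups overlapped. The log2 fold change of 0.98 ± 0.37 (SE, 95% interval 0.17 to 1.80) did not pass (edgeR adjusted p = 0.138). It passed with the block (1.08 ± 0.22 SE on the log2 scale, edgeR adjusted p = 0.00239), with no filter on low counts (edgeR adjusted p = 0.00205), in DESeq2 (adjusted p = 0.0469) and without Biotin- replicate 2 (log2 fold change 1.48, edgeR adjusted p = 0.0219). CTLA-4 is also abundant on regulatory CD4 T cells. Foxp3, which marks those cells, was at 0.384 CPM in Biotin- replicate 2 and at 0.121 to 3.21 CPM over all libraries, and Cd4 was at 3.29 CPM there. The 5 markers of CD4 and regulatory T cells summed to 173.8 to 279.4 CPM in Biotin+ and 81.6 to 163.4 CPM in Biotin-. Most of each sum was Il2ra, at 131.0 to 244.2 and 59.3 to 97.6 CPM, and it alone was called higher. Cd4 was lower with the block (log2 fold change -1.55, edgeR adjusted p = 0.0353). Foxp3 (log2 fold change -0.05), Ikzf2 (0.02) and Cd40lg (0.53) did not pass. The part of such cells in Ctla4 was not tested.

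Cd101, Cd160 and Cd96 had positive fold changes that did not pass alone and passed with the block. Cd101 was at 33.6, 28.0 and 29.6 CPM in Biotin+ and at 18.6, 20.1 and 13.1 CPM in Biotin-, with no overlap (0.82 ± 0.24 SE on the log2 scale, edgeR adjusted p = 0.0620, 0.0166 with the block). It also passed in DESeq2 (adjusted p = 0.0206) and limma-voom (adjusted p = 0.0358). Cd160, a receptor with a lipid-anchored form on cytotoxic lymphocytes, was at 80.7, 81.8 and 50.3 CPM in Biotin+ and at 40.7, 54.2 and 30.2 CPM in Biotin-. Its groups overlapped through Biotin+ replicate 3 (0.77 ± 0.27 SE on the log2 scale, edgeR adjusted p = 0.116, 0.0114 with the block). Cd160 also passed with no filter on low counts (edgeR adjusted p = 0.0321). Exons of Cd160 overlap the gene Pdzk1 on the opposite strand, and no strand setting is given for the counts.

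Cd96, which shares its ligands with TIGIT, was at 117.8, 112.1 and 64.0 CPM in Biotin+ and at 66.7, 80.1 and 35.8 CPM in Biotin-. In each group replicate 3 was the lowest, and within the 3 numbers the difference was 0.82, 0.48 and 0.84 on the log2 scale (0.69 ± 0.32 SE on the log2 scale, edgeR adjusted p = 0.235, 0.0151 with the block). Lilrb4a was at 88.4, 98.2 and 103.5 CPM in Biotin+ and at 86.3, 73.8 and 59.6 CPM in Biotin-. Its ranges did not overlap, by a narrow margin, and it did not pass with or without the block (0.40 ± 0.20 SE on the log2 scale, edgeR adjusted p = 0.267 and 0.184). Of its 75-base windows 40.3% were shared with transcripts of other genes, among them Gm49339 and Lilr4b, so that its counts are uncertain. Markers of macrophages and monocytes, cells that also use this gene, summed to 346.1 to 1042 CPM in Biotin+ and 779.3 to 2787 CPM in Biotin- (10 genes, 0 called in edgeR, and 3 lower with the block: Mrc1, Adgre1 and Lyz2). Their part in Lilrb4a was not tested.

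**Figure D2:**
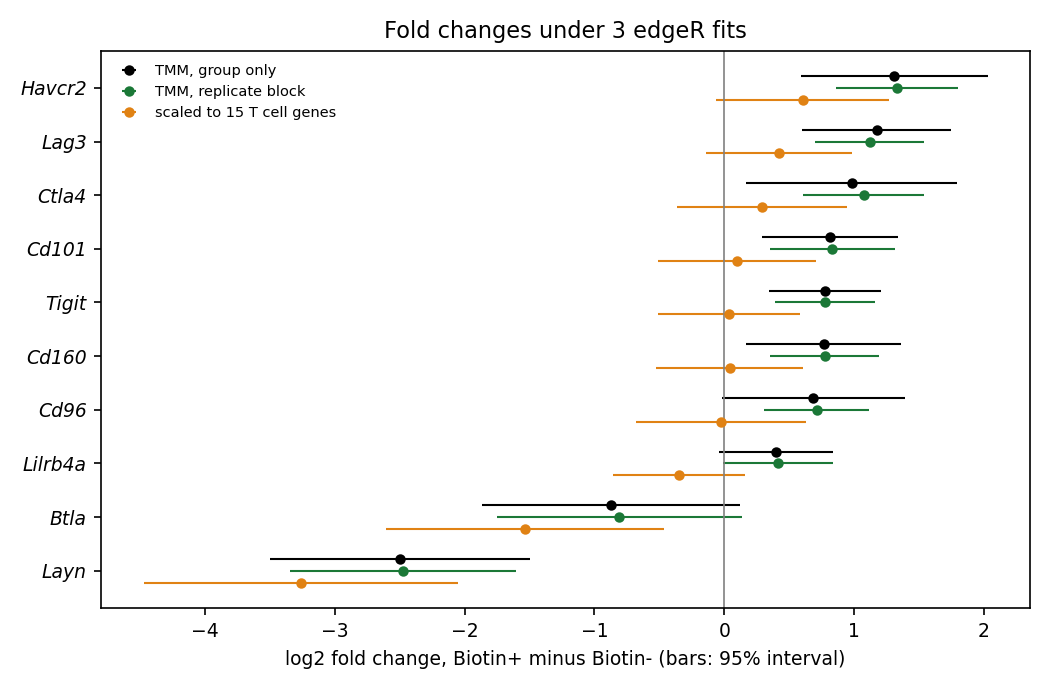
Log2 fold change of each receptor gene (Biotin+ minus Biotin-, 95% interval) in edgeR with TMM scaling, with the replicate block added, and with libraries scaled to 15 T cell identity genes. The block narrows the intervals and leaves the values near their place, while the identity scaling moves all 10 toward lower values and brings Tigit to 0.04.

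Layn had the largest difference of the 10 and ran against most others. It was at 1.24, 0.813 and 1.45 CPM in Biotin+, from 13 to 24 counts a library, and at 4.91, 5.65 and 9.41 CPM in Biotin-, from 101 to 174 counts. The groups were far apart (-2.50 ± 0.45 SE on the log2 scale, edgeR adjusted p = 0.0105, 0.000419 with the block). The call was lost without Biotin- replicate 3 (-2.17 on the log2 scale, edgeR adjusted p = 0.0685), and without both replicate 2 libraries (-2.47, edgeR adjusted p = 0.0645). Layilin is also made by fibroblasts, and the fibroblast and endothelial markers were lower in the same libraries. Per 1000 counts of those 11 markers, a denominator chosen after the data were seen, Layn was at 7.09, 5.26 and 4.32 counts in Biotin+ and at 3.51, 5.44 and 6.98 counts in Biotin-. On that ratio the groups overlapped (log2 difference 0.0913, exact two-sided permutation p = 0.9). With so few libraries, such an overlap cannot show that the ratios are equal. Once the group difference was taken out, the Pearson r of Layn with Col1a1, 1 of those 11 markers, was -0.07. The other markers were not compared in this way, so the value does not describe the list. Markers differed: Dcn was highest in replicate 3 of both groups, as Layn was, while Col1a1 was highest in replicate 1 of Biotin-. The part of fibroblasts in Layn was not tested.

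**Figure D3:**
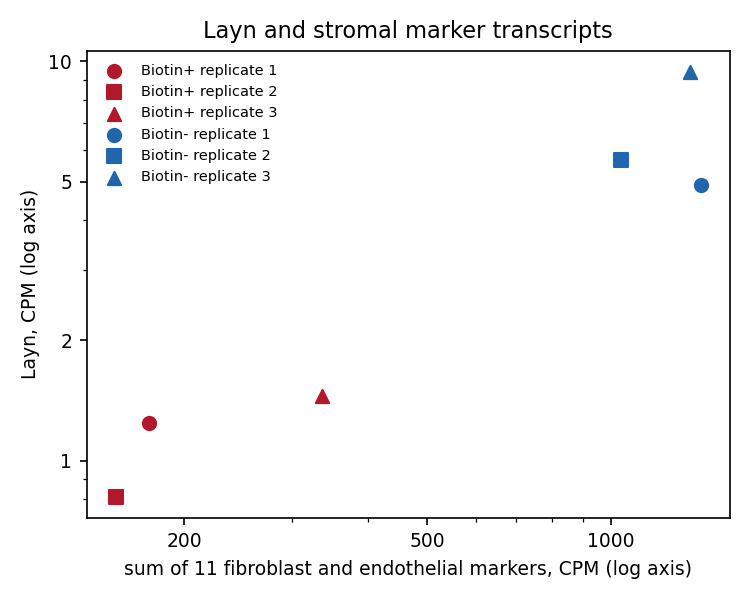
Layn in CPM against the summed CPM of 11 fibroblast and endothelial markers, both on log axes, 1 point per library. The 3 Biotin+ libraries lie at the low end of both axes (154.6 to 336.7 CPM of markers) and the 3 Biotin- libraries at the high end (1039 to 1402 CPM).

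Btla, the receptor for HVEM on naive and resting lymphocytes, was the other gene with a negative value. It was at 2.86, 1.81 and 2.85 CPM in Biotin+ and at 3.70, 6.85 and 3.24 CPM in Biotin-, from 29 to 125 counts a library. The ranges did not overlap, yet Biotin- replicates 1 and 3 were only slightly above the Biotin+ libraries (log2 fold change -0.87 ± 0.45 SE, 95% interval -1.87 to 0.12, edgeR adjusted p = 0.287, 0.245 with the block). B cells use Btla as well, and the 6 B cell markers summed to 1.63 to 2.85 CPM in Biotin+ and 2.63 to 3.06 CPM in Biotin-. Cr2 had no count in any library, while Cd79b was at 0.750 to 2.66 CPM over the 6 libraries, which overlaps the levels of Btla. Their part in Btla was not tested.

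The call of higher receptors depended on what the libraries were scaled to. All 15 T cell identity genes (Cd8a, Cd3e and others of the receptor complex and its kinases) had positive log2 fold changes, with a median of 0.69. When libraries were scaled to the median of these genes, 0 of the 10 receptors were higher in edgeR (0.180% of all tested genes), also at an unadjusted p under 0.05, and 2 were lower (26.6%), Layn and Btla. That scaling moved the median over all tested genes on the log2 scale from 0.06 to -0.69 and the share of higher genes among all calls from 18.6% to 0.670%. Havcr2 was then at 0.60 ± 0.30 on the log2 scale (SE, edgeR adjusted p = 0.132), Lag3 at 0.42 ± 0.25 (SE, edgeR adjusted p = 0.191) and Tigit at 0.04 ± 0.25 (SE, edgeR adjusted p = 0.901). Cd96 and Lilrb4a turned negative, at -0.03 and -0.34. With the block added to this scaling Havcr2 alone was higher (log2 fold change 0.58, edgeR adjusted p = 0.0335).

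A ratio within a library does not depend on scaling. Per 1000 counts of the CD3 chains Cd3d, Cd3e and Cd3g, Havcr2 was at 77.5, 93.0 and 173.7 counts in Biotin+ and at 64.6, 104.2 and 87.0 counts in Biotin-. Biotin+ replicate 3 stood above the rest, and the other Biotin+ libraries lay among the Biotin- values (exact two-sided permutation p = 0.5). Lag3 was at 223.5, 279.2 and 503.7 counts in Biotin+ and at 284.2, 250.4 and 320.2 counts in Biotin- (exact permutation p = 0.9). Tigit was at 182.6, 117.2 and 216.8 counts in Biotin+ and at 231.4, 146.3 and 203.8 counts in Biotin- (exact permutation p = 0.6). The groups overlapped for both genes.

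Cd3d, Cd3e and Cd3g had log2 fold changes of 0.67, 0.97 and 1.23 themselves. A gene with the same CPM in both groups therefore falls in Biotin+ on a ratio to them. The share of all tested genes with ranges apart on this ratio was not computed. Relative to CD3, 0 of the 10 receptors had all Biotin+ libraries above all Biotin- libraries, and 2 had them below. These were Layn, at 0.443 to 1.15 counts per 1000 in Biotin+ and 5.96 to 14.5 in Biotin-, and Btla, at 0.989 to 2.25 and 4.99 to 7.23. Each had an exact permutation p of 0.1, the smallest that 3 against 3 allows, and 0.5 when adjusted over the 10 genes, and the adjusted values of the other 8 were 0.5 to 0.9. Within same-numbered pairs, counted after the data were seen, 0 of the 10 were higher in all 3 pairs and 5 were lower. The 5 were Cd160, Btla, Cd96, Layn and Lilrb4a, although Cd160 differed by only -0.00495 on the log2 scale in pair 1. No share over all tested genes was computed for these counts either. With the identity genes as denominator, the log2 group difference was 0.02 for Cd160, -0.04 for Cd96, -0.34 for Lilrb4a, -1.57 for Btla and -3.21 for Layn. Per CD3, the log2 group differences of the 8 genes other than Layn and Btla ran from -0.55 for Lilrb4a to 0.36 for Havcr2. In CPM the 10 receptors together summed to 1316, 1736 and 1906 in Biotin+ and to 787.8, 1090 and 701.6 in Biotin-, with no overlap. Per 1000 CD3 counts they summed to 923.2, 947.3 and 1508 and to 1100, 1150 and 1080, and Biotin+ lay on both sides of Biotin-. Pdcd1, measured the same way, was at 502.2, 1012 and 1046 counts in Biotin+ and at 367.0, 669.9 and 489.8 counts in Biotin- (log2 difference 0.71, exact permutation p = 0.2, higher in 3 of 3 pairs).

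**Figure D4:**
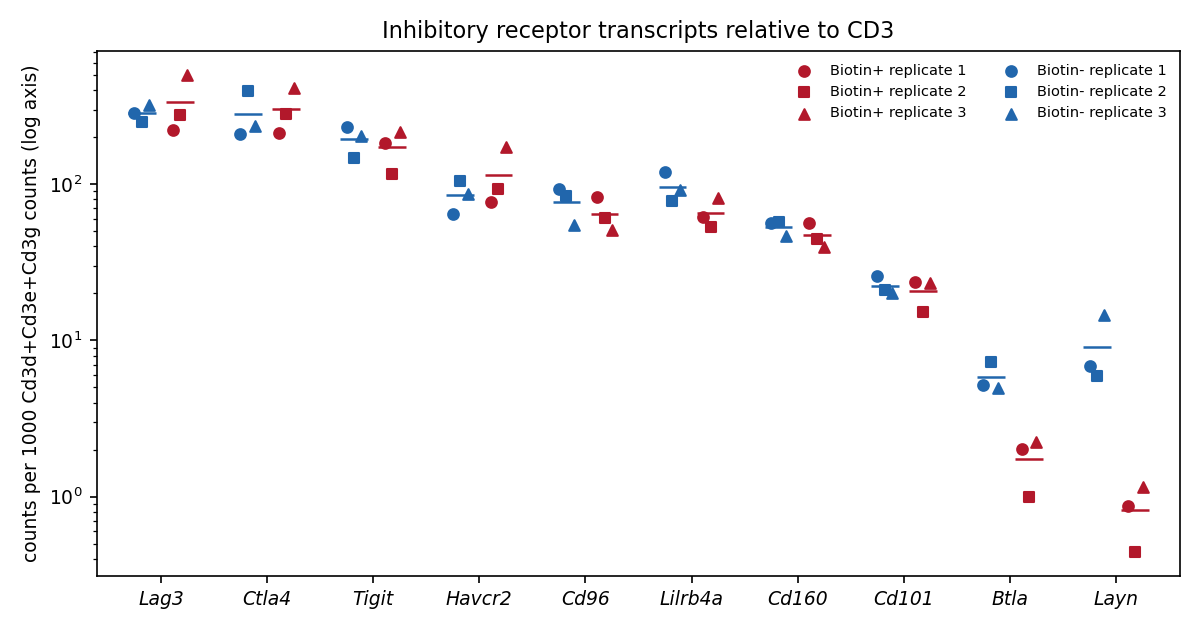
Counts of each receptor gene per 1000 summed counts of Cd3d, Cd3e and Cd3g (log axis) in the 3 Biotin+ (red) and 3 Biotin- (blue) libraries, with a bar for the mean of each group. The groups overlap for 8 genes, and Btla and Layn alone have all red points below all blue points.

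Beyond the difference between groups, some receptors varied together between libraries. Departures of log2 CPM from their group's mean over the 6 libraries correlated at 0.94 between Havcr2 and Ctla4, 0.81 between Havcr2 and Lag3, 0.68 between Lag3 and Ctla4 and 0.97 between Cd160 and Cd96 (Pearson r, a description over 6 libraries that share their pairing). Between these sets, which were named after their values were seen, the values ran from -0.38 for Lag3 with Cd96 to 0.35 for Ctla4 with Cd160. Other pairs above that of Lag3 with Ctla4 were Cd96 with Cd101 (0.79), Btla with Cd101 (0.74) and Cd160 with Cd101 (0.69). Over all 45 pairs the median was 0.15. In Biotin+ replicate 3, Havcr2 and Lag3 departed by 0.45 and 0.44, and Cd160 and Cd96 by -0.46 and -0.56. The ratio of Havcr2 to Cd96 counts was 3.43 in that library, 0.938 and 1.52 in the other Biotin+ libraries, and 0.694 to 1.58 in Biotin-.

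**Figure D5:**
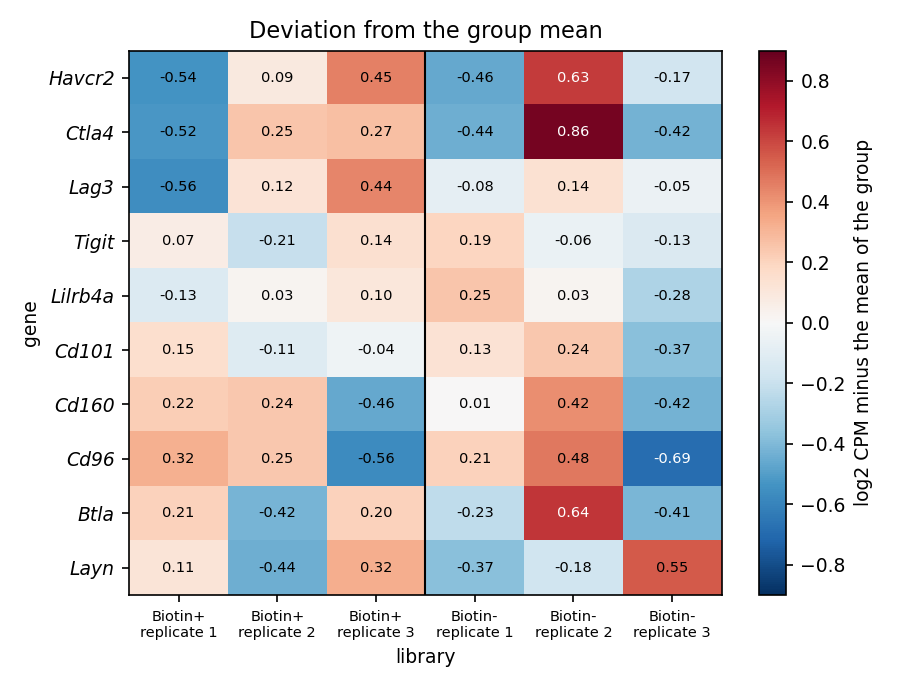
Departure of log2 CPM from its group's mean for each receptor gene (rows) in each library (columns), with the value printed in each cell. Havcr2, Ctla4 and Lag3 are below their means in replicate 1 of both groups, and Cd160 and Cd96 are below theirs in replicate 3 of both groups.

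Deviations of Pdcd1 went with the first set (0.93 with Ctla4, 0.87 with Havcr2 and 0.71 with Lag3), and were at 0.30 and 0.17 with Cd160 and Cd96. The deviations of Cd3e went with Cd160 and Cd96 (0.89 and 0.84) more than with Havcr2 and Lag3 (0.39 and 0.10), with Ctla4 between them (0.67). Pdcd1 itself was at 715.9, 1855 and 1322 CPM in Biotin+ and at 262.9, 635.2 and 318.2 CPM in Biotin-. Tigit went with none of these, at -0.57 with Pdcd1 and -0.35 with Cd3e. Over the 6 libraries, group difference included, the genes most like Havcr2 among 8456 others with a mean of at least 10 CPM were Herpud2, Nabp1 and Actr8 (Pearson r 0.988 to 0.993). For Lag3 they were Hdac7, Serpinb9b and Lpcat4 (0.989 to 0.994), for Tigit Sh2d3c and Ccdc88b were among them (0.995 and 0.989), and for Ctla4 Serpinb6b, D16Ertd472e and Slc35f2 (0.993 to 0.994). For Layn they were Cav2, a caveolin, Gpx8 and Mical2 (0.996 to 0.997), of which Cav2 had a log2 fold change of -2.26 and Gpx8 of -1.99. The gene most like Cd160 was Golph3l (0.998), that most like Cd96 was Grb2 (0.996), and those most like Cd101, Btla and Lilrb4a were Tmem164 (0.996), Rabgap1 (0.985) and Hk1 (0.990). For Layn and Btla 8457 genes were compared.

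Ligands of these receptors were measured in the same sorted cells. Of 15 ligand genes 14 were tested, and 2 were lower, 0 higher and 12 did not pass (median log2 fold change -0.13). Nectin2, a ligand of TIGIT in its family of adhesion proteins, was at 2.32, 1.38 and 2.91 CPM in Biotin+ and at 10.7, 4.94 and 9.78 CPM in Biotin- (-1.94 ± 0.44 SE on the log2 scale, edgeR adjusted p = 0.0241). Nectin3, a related adhesion protein, was at 2.32, 1.19 and 3.33 CPM and at 6.96, 7.07 and 10.4 CPM (-1.83 ± 0.43 SE on the log2 scale, edgeR adjusted p = 0.0290). The ranges were apart for both genes. Nectins are made by epithelial and stromal cells, the fibroblast and endothelial markers were lower in the same libraries, and their part was not tested. With the block 1 ligand was higher, Cd80, which binds CTLA-4 (1.17 ± 0.37 SE on the log2 scale, edgeR adjusted p = 0.0376, and 0.201 without the block), at 8.74 to 12.3 CPM in Biotin+ and 1.95 to 7.35 CPM in Biotin-. It was named after its values were seen. No ligand was called higher by DESeq2 or limma-voom, and 1 had an unadjusted edgeR p under 0.05 on the higher side. With Biotin+ replicate 2 left out, or replicate 1 or 3 of Biotin-, 0 ligands were lower, and without Biotin+ replicate 1 or Biotin- replicate 2 there was 1.

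Genes listed as activating receptors or other partners of these receptors did not pass. Of 6 such genes (Cd28, Icos, Cd226, Crtam, Cd4 and Tnfrsf14, which is also among the ligands) edgeR called 0. At an unadjusted edgeR p under 0.05 there was 1 on either side, as there was in DESeq2, and limma-voom called 1 higher. Icos, a costimulatory relative of CD28, was at 401.4, 446.3 and 658.5 CPM in Biotin+ and at 201.9, 355.7 and 250.9 CPM in Biotin- (0.90 ± 0.27 SE on the log2 scale, edgeR adjusted p = 0.0719, 0.00478 with the block). Cd4 was at 0.848 to 1.62 CPM in Biotin+ and 2.27 to 5.45 CPM in Biotin- (-1.58 ± 0.53 SE on the log2 scale, edgeR adjusted p = 0.0985, 0.0353 with the block). The groups did not overlap for either gene.

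Downstream of the receptors, 1 of 11 signalling and trafficking genes was higher and 0 were lower, and with the block 2 were higher (Ptpn6 and Inpp5d). The one higher without the block was Ptpn6, the phosphatase SHP-1, which several inhibitory receptors recruit. It was at 167.5, 293.0 and 210.8 CPM in Biotin+ and at 110.9, 142.7 and 79.6 CPM in Biotin- (1.01 ± 0.27 SE on the log2 scale, edgeR adjusted p = 0.0469). It was close to the threshold: the count of higher genes in this list was 0 with upper quartile scaling, with library size alone, with the identity scaling, and without any 1 library other than Biotin+ replicate 1. The list had 0 lower genes at an unadjusted edgeR p under 0.05, in DESeq2 and in limma-voom. Its median log2 fold change was 0.29, and -0.43 under the identity scaling.

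Among 16 transcription factors tied to these receptors, 1 was lower, 0 were higher and 15 did not pass. With the block 3 were higher (Tbx21, Bhlhe40 and Nfil3) and 2 lower (Tcf7 and Nr4a1), names given after the values were seen. The one lower without it was Tcf7, which encodes TCF-1 of stem-like T cells: it was at 92.4, 81.6 and 87.7 CPM in Biotin+ and at 278.5, 332.4 and 279.5 CPM in Biotin- (-1.77 ± 0.19 SE on the log2 scale, edgeR adjusted p = 0.00442). All 3 Biotin+ libraries were far below all 3 Biotin- libraries. At an unadjusted edgeR p under 0.05 there were 2 factors on either side, and DESeq2 and limma-voom each called 1 higher and 2 lower. The median of this list was 0.20, and -0.52 under the identity scaling. Of 16 further inhibitory receptors 15 were tested and 1, Pdcd1, was higher (1.68 ± 0.40 SE on the log2 scale, edgeR adjusted p = 0.0299), 0 were lower in edgeR, DESeq2 or limma-voom, and 1 was lower at an unadjusted edgeR p under 0.05. With the block 4 were higher and 2 lower. Leaving out Biotin+ replicate 2, or replicate 1 or 3 of Biotin-, took the call of Pdcd1 away (1.31 to 1.53 on the log2 scale). Cd244a, named after its values were seen, had a fold change near that of Pdcd1 but did not pass (1.67 ± 0.48 SE on the log2 scale, edgeR adjusted p = 0.0620, 4.07e-05 with the block).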

How the data were processed

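Raw read counts per gene symbol, made by the authors, were used as deposited, 1 column per library. Trim Galore 0.6.7, STAR 2.7.10a, Picard 1.14, featureCounts 2.0.1 and GRCm39 stand in the submitters' processing notes with no order or role, and the sources used here do not give the annotation, the strand setting or how shared reads were counted. Libraries were grouped and numbered by their titles. Genes and lists were chosen with earlier results of these data known.

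Differences were fitted with edgeR 4.0.16 (R 4.3.3; filterByExpr, TMM, robust quasi-likelihood F test, group alone) with Benjamini-Hochberg adjustment over 13360 genes and a threshold of 0.05. SE is the log2 fold change over the root of F. CPM are TMM-scaled. Alternatives were other scalings and filters, DESeq2 1.42.0, limma-voom (limma 3.58.1), the replicate block, and fits without single libraries or same-numbered pairs. Identity scaling used the median of 15 T cell genes. Same-numbered libraries deviated together (r = 0.366, 0.263 and 0.393 across genes, against -0.276 to -0.0721 for others), so the numbers were taken as pairs. Deviations from a group mean cancel within the group, so the negative values follow in part from the positive ones. Libraries of 1 group differed well beyond sampling noise (39.3 to 109 chi-square units for each degree of freedom), so each was kept as a replicate. No intervals of counting error are given. The fit was tested on simulated data. Per-CD3 ratios were tested by exact two-sided permutation over libraries. Exon lengths and shared 75-base windows came from GENCODE M21 (GRCm38). Named genes were the 10 receptors, the genes of each list that passed (or the 2 with the smallest p where none did), Pdcd1, Cd8a, Cd3e and the 3 genes most like a receptor; some genes the rule covers are not reported here. Genes named as called with the block alone, and marker genes, were named after their values were seen.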

Additional observations from a re-analysis of the deposited data

How the results depend on the processing

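The number of the 10 receptors called higher, 3 in edgeR with TMM scaling and the group alone, was 1 with library size alone, 0 with the identity scaling, 5 with no filter, 5 in DESeq2, 7 with the replicate block and 1 with the replicate block and the identity scaling. Without single libraries or same-numbered pairs it was 0 to 2. The number called lower, 1 in that fit, was 2 with the identity scaling with or without the replicate block, and 0 to 1 without single libraries or pairs. Over all genes, 205 were higher in that fit and 84 with library size alone, 24 with the identity scaling, 396 with no filter, 471 in DESeq2, 351 in limma-voom, 748 with the replicate block and 96 with both block and identity scaling, and 23 to 200 without single libraries (67, 46 and 39 without the pairs 1, 2 and 3). Lower genes were 898 in that fit and 3558 with the identity scaling, 1495 with no filter, 1389 in DESeq2, 1599 with the replicate block and 7410 with both, and 239 to 1044 without single libraries (385, 445 and 588 without the pairs). Among the 10 receptors and the 19 alternatives of each, fitted log2 fold changes changed sign only for Cd96 (-0.0266, and -0.0372 with the block) and Lilrb4a (-0.345 and -0.338), both under the identity scaling. Of the ratios, Layn changed sign per marker count (0.0913 against -3.43 per CD3 count), and with the identity genes as denominator so did Tigit (0.0249), Cd160 (0.0213) and Cd101 (0.0831). Scaling moved the median over all genes on the log2 scale from 0.06 to -0.14 with library size alone and to -0.69 with the identity genes. The count of receptors higher per CD3 count without overlap stayed at 0 with Cd8a and Cd8b1 or the identity genes as denominator, within pairs and without each library. Btla and Layn, at 13 to 174 counts a library, are the receptors whose precision depth limits most. The cause of these differences was not tested.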
